A study of Mus musculus with 22 samples.

Results

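Chemokines and cytokines that synovial fibroblasts are known to make were followed through the histone mark H3K4me3 at 8 genes: the CC chemokines Ccl2 and Ccl7, the CXC chemokines Cxcl1, Cxcl5 and Cxcl12, the cytokines Il6 and Lif, and the growth factor Csf1. Every region that the 4 deposited comparison tables assigned to one of these genes by name was taken, whatever its position class and value. That gave 16 of 26201 listed regions, and they lay at 7 of the 8 genes. Lif had 4 of them, Csf1 6, Ccl2 2, and Ccl7, Cxcl1, Cxcl5 and Cxcl12 had 1 each. Il6 had no listed region in any table. A table lists a region only where its best window reached a p of at most 0.0001 in the authors' own comparison, so an unlisted gene has no value here, and its H3K4me3 may be high, low or absent.

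H3K4me3 was measured by ChIP-seq (sequencing of DNA that an antibody against histone H3 trimethylated on lysine 4 brings down) in cultured, passaged synovial fibroblasts from mice of a CBA x C57BL/6J background. Wild-type (WT) and Tg197 cells were each taken from mice 3, 8 and 11 weeks old, and a 7th group held WT cells from 8 weeks with TNF added. Every group had 3 libraries, and there was 1 input library of mixed genotype. Tg197 mice carry a human TNF transgene and develop an inflammatory polyarthritis, and the series design calls the 3 ages early, established and late. No source used here gives the dose or duration of TNF, or says whether libraries of a group stem from separate animals, so every p below measures only the spread between these libraries. The cells had been grown in culture before the measurement, so the values describe cultured fibroblasts and not the joint itself.

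Chemokines are small secreted proteins that direct the movement of leukocytes. Ccl2 and Ccl7 act on the receptor Ccr2 of monocytes, Cxcl1 and Cxcl5 act on Cxcr2 of neutrophils, and Cxcl12 acts on Cxcr4 of lymphocytes and stem cells. Il6 and Lif belong to a cytokine family that signals through the shared receptor chain gp130, encoded by Il6st, and the Stat3 pathway, while Csf1 supports the survival of macrophages and the formation of bone-resorbing osteoclasts. TNF induces many of these genes in fibroblasts through NF-kB, a transcription factor that binds the kappaB motif. H3K4me3 marks the nucleosomes around the start sites of genes that are active or poised, and its level is a readout of chromatin, not of RNA or protein.

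The promoters of 3 genes are shown because listed regions of Csf1 span its start site, and because Cxcl1 and Lif rose at 11 weeks, as Ccl2, Ccl7 and Cxcl5 did. The regions that rose in Cxcl1 and Lif began 731 and 8031 bases after the start site, so they lay outside these promoters. The listed Lif regions nearer the start, at 3 weeks, were lower in Tg197 by the authors' scaling. The sequences are from RefSeq (GRCm38.p6) and hold the 250 bases before the start, 5′ to 3′ on the gene's strand, and capitals mark matches to the kappaB consensus and, in Lif, to an AP-1 motif as well. Csf1 is at chr3:107760470-107760719 on the minus strand, Cxcl1 at chr5:90890995-90891244 and Lif at chr11:4257318-4257567 on the plus strand. The regions in the tables have mm9 coordinates, which were not compared with these.
Csf1: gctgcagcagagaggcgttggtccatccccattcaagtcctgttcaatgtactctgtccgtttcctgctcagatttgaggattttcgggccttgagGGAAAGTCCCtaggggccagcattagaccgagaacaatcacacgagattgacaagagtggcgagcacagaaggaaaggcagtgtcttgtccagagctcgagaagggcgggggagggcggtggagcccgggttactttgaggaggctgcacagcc
Cxcl1: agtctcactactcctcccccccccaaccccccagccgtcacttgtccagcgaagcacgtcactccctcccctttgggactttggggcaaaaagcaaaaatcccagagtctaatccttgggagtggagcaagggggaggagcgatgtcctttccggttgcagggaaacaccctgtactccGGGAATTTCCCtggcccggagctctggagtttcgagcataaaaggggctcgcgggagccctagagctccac
Lif: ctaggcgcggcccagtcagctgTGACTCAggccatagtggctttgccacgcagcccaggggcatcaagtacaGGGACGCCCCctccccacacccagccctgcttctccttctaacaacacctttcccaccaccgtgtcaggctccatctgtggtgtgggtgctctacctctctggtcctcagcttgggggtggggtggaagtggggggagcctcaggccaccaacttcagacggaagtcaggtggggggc
RefSeq promoter entries were matched for 5 of the 8 members, namely these 3, Il6 and Cxcl12. Both strands were searched in windows that also held the 50 bases after the start. The kappaB consensus matched in Csf1 (on the minus strand, from 154 bases before the start), in Cxcl1 (71 bases before the start, on both strands with overlap), in Lif (178 bases) and in Il6 (44 bases), and 8.46% of all 32851 promoter windows held a match. AP-1, searched as TGANTCA, matched in Lif 228 bases before the start and in Il6 near the far end of its window, and 7.81% of all windows held it. Cxcl12 had no match to either, and held 5 GC boxes, searched as GGGCGG and present in 35.7% of all windows. A match is only a string of letters, and binding was not measured.

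Values below are the authors' normalized reads in a region, letters a, b and c stand for the first, second and last value that the table gives for a group, and means carry the SD with n = 3. Reads in listed regions ran from 1560963 to 2780941 per library at 3 weeks, from 390496 to 849692 at 8 weeks, from 807633 to 1096917 at 11 weeks and from 321448 to 1312112 in the TNF table, and a member region held between 58 and 540 reads in a library. Changes are log2 ratios of Tg197 over WT, or of TNF-treated over untreated cells, with the standard error (SE) from limma, a linear model fitted to all listed regions of a table, and "rose" and "fell" are used where its adjusted p was under 0.05. The regions had been chosen by the authors' test on the same libraries, so limma is not independent evidence that they differ. Most listed regions were lower in every comparison, and the median log2 changes were -0.70 (3 weeks), -0.86 (8 weeks), -0.60 (11 weeks) and -0.58 (TNF). Rescaling every library on its listed regions moved these medians to -0.04, -0.15, -0.26 and -0.07, and rescaling on only those near a transcription start site (TSS, within 1 kb) moved them to -1.04, -0.99, -0.74 and -0.68. The first thus raised the changes of each table and could turn only lower regions. The second lowered them and could turn only higher regions. Directions below follow the authors' scaling, and where another scaling turns the direction of a member region, that is stated beside it.

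The tables cannot show which cell types were present, since a marker is listed only where it differed, but they show which markers moved, here by the authors' adjusted p. Of 10 markers of synovial fibroblasts, Pdgfra and Pdpn were higher at 3 weeks, Col1a1, Col6a1 and Htra4 lower, and Pdgfrb and Vcam1 had regions in both directions. Pdpn and Thy1 were higher and Htra4 lower at 8 weeks, Col6a1, Pdgfra and Vcam1 were higher at 11 weeks with Pdgfrb in both directions, and with TNF Pdpn was higher and Col1a1, Col6a1 and Pdgfrb lower. Prg4 and Cd55 had no listed region. Of 12 leukocyte marker names, with Adgre1 entered also as Emr1, Itgam (3 and 11 weeks) and Cd79a and Fcer1g (8 weeks) were lower in Tg197, and 0 were higher in any table. Of 6 endothelial markers, Pecam1 had 2 higher regions in Tg197 at 11 weeks (log2 changes 0.71 ± 0.20 and 0.62 ± 0.21) and 1 lower one, Tek was lower at that age and at 3 weeks, Flt1 was higher (0.59 ± 0.21) and Pecam1 lower at 3 weeks, and Pecam1 was lower with TNF. Of 8 markers of cartilage, bone and fat, 4 were lower at 11 weeks (Adipoq, Comp, Pparg and Sp7) and 3 in each other table, and none was higher. Ckm (muscle) was lower at 3 and 8 weeks and Cdh1 (epithelium) at 3 weeks. By the same adjusted p, 89.5% of all listed regions were lower at 3 weeks, 77.2% at 8 weeks and 72.3% with TNF. At 11 weeks 4417 of 6593 were lower. The lower markers are to be read against these shares. With scaling to the listed regions, lower regions turned at 3 weeks in Col1a1, Col6a1, Pdgfrb, Itgam, Pecam1, Tek, Comp and Sp7, at 8 weeks in Sox9 and with TNF in Pdgfrb. No higher marker region turned with scaling to regions near a TSS, the only rescaling that could turn one. The part of other cell types in the results below was not tested.

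**Figure D1:**
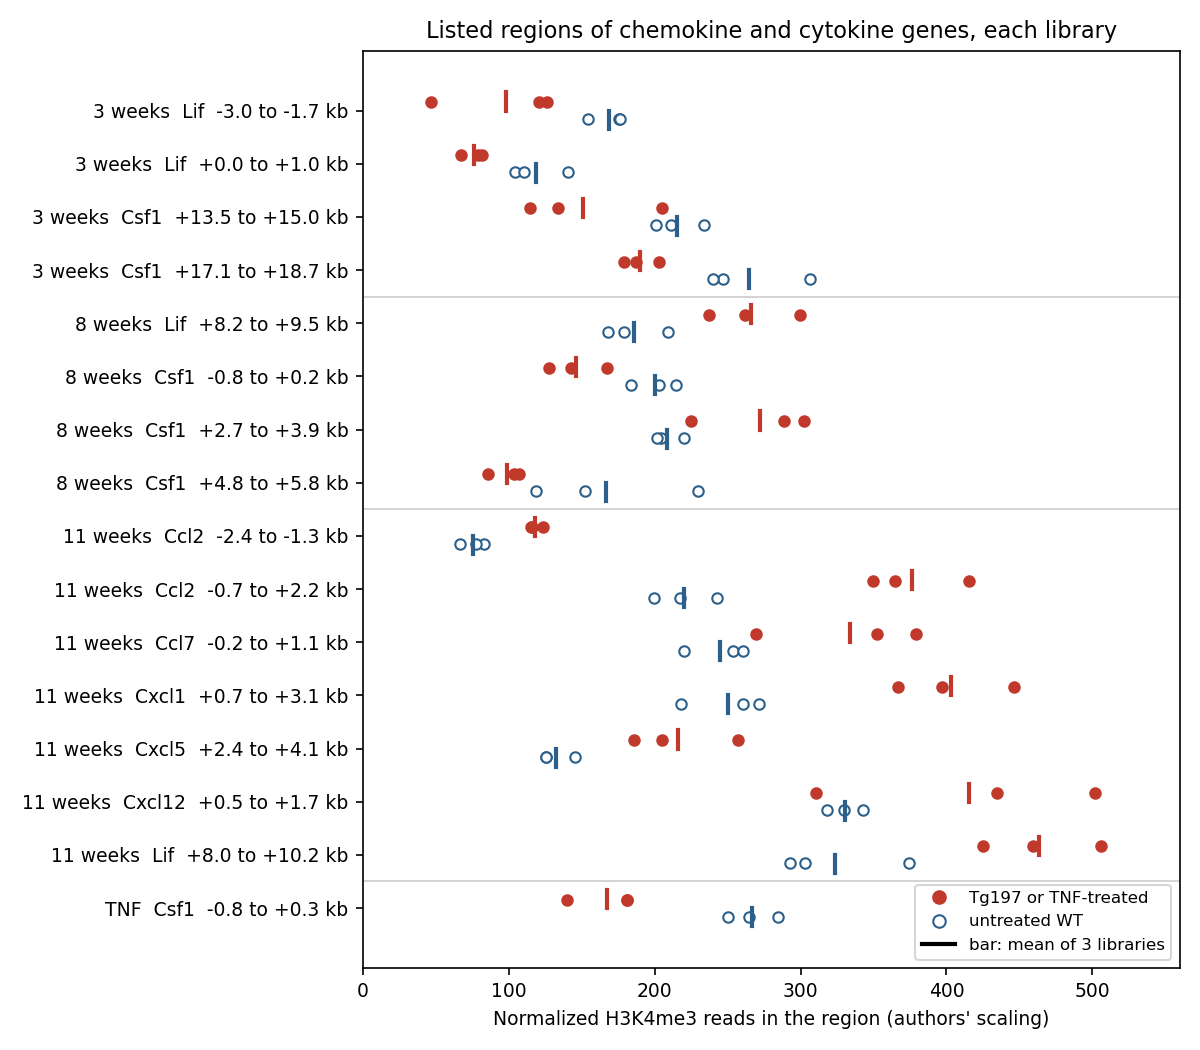
Normalized H3K4me3 reads (x axis, authors' scaling, linear) of each library in the 16 regions, named by comparison, gene and distance from the TSS. Filled points are Tg197 or TNF-treated libraries, open points are WT libraries and bars are means of 3. At 11 weeks the filled points lie to the right of the open ones in 6 of 7 regions, and at 3 weeks they lie to the left in 3 of 4.

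At 11 weeks, the late stage of disease, H3K4me3 was higher in Tg197 cells at 6 of the 8 genes. All 7 member regions passed the authors' adjusted p with more H3K4me3 in Tg197, where 29.8% of all listed regions did so, and 6 of them rose by limma, where 29.6% of all did. Library values did not overlap between the groups in 6 of the 7 regions, against 28.8% of all listed regions. The median log2 change over the 7 regions was 0.65, and it was -0.60 over all listed regions of the table. The members were chosen with earlier results of these data known, so these contrasts with all listed regions are not unbiased. Of the 7 regions 5 were in promoter classes. All listed promoter regions had a median of 0.09, 802 of 1771 of them rose by limma, and 50.6% had a positive change. The chromatin came from bulk cells, so more cells with the mark and more mark per cell cannot be told apart.

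Ccl2, the main monocyte chemoattractant of fibroblasts, had a region across the whole gene (chromosome 11, 81848401 to 81851300 on mm9, from 677 bases before the TSS to 347 bases past the gene's end). Its Tg197 libraries held 415, 349 and 365 normalized reads and its WT libraries 217, 199.7 and 243. The lowest Tg197 library was well above the highest WT library. The means were 376.6 ± 34.5 and 219.9 ± 21.6, a 1.71-fold rise (log2 change 0.78 ± 0.11, limma adjusted p = 0.00345). The authors' best window, from 123 to 1122 bases after the TSS, differed 2.13-fold in the authors' deposited table.

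A second Ccl2 region lay upstream, from 2377 to 1278 bases before the TSS (81846701 to 81847800). It held 123, 116 and 116 reads in Tg197 against 66.2, 82.8 and 77.5 in WT. The Tg197 libraries were close together and all above WT. The rise was 1.56-fold, from 75.5 ± 8.5 to 118.1 ± 4.3 (log2 change 0.65 ± 0.16, limma adjusted p = 0.0045).

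Ccl7, which attracts monocytes through the same receptor, starts 10.1 kb downstream of Ccl2. Its region ran from 212 bases before to 1087 bases after the TSS (chromosome 11, 81859001 to 81860300). Tg197 libraries held 352, 269 and 379 reads and WT libraries 254, 261 and 220.2. Tg197 library b was only just above the highest WT library. The rise from 244.9 ± 21.7 to 333.7 ± 57.2 was 1.36-fold (log2 change 0.43 ± 0.13, limma adjusted p = 0.0064), the smallest of the CC regions, and was 0.29 with scaling to regions near a TSS. Past the end of Ccl7, 2.5 to 3.8 kb after its TSS, an intergenic region rose too, from 106.4 ± 8.1 to 165.0 ± 31.6 (log2 change 0.62 ± 0.15, limma adjusted p = 0.0045).

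Among the neutrophil chemokines, Cxcl1 had a region from 731 to 3130 bases after its TSS, which ran 1262 bases past the gene's end (chromosome 5, 91321001 to 91323400). The Tg197 libraries held 447, 367 and 397 reads and the WT libraries 272, 261 and 218. No Tg197 library came near the WT range. The means were 403.4 ± 40.3 and 250.1 ± 28.3, a 1.61-fold rise (log2 change 0.69 ± 0.11, limma adjusted p = 0.00434). In the authors' deposited table its best window, with p = 8.42e-12, ranked 56 of 6593.

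Cxcl5, 131.9 kb from Cxcl1 on the same chromosome, had a region classed as gene body that began 51 bases after the gene's end, 2377 to 4076 bases after the TSS (91190701 to 91192400). It held 257, 205 and 186 reads in Tg197 and 146, 126 and 126 in WT. The groups were apart, with Tg197 library a highest. The rise was 1.63-fold, from 132.4 ± 11.5 to 215.9 ± 36.8 (log2 change 0.69 ± 0.14, limma adjusted p = 0.00434).

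Cxcl12, a chemokine that fibroblasts make without stimulation, differed from these 4 chemokine genes in its call. In its region, 549 to 1748 bases after the TSS (chromosome 6, 117119101 to 117120300), Tg197 libraries held 502, 310 and 434 reads and WT libraries 330, 318 and 343. Tg197 library b lay below all 3 WT libraries, so the groups overlapped. The means of 415.7 ± 97.3 and 330.3 ± 12.2 differed 1.26-fold, and the log2 change of 0.30 ± 0.14 did not pass (limma adjusted p = 0.0515). Without Tg197 library b the change was 0.50 (limma adjusted p = 0.00315), and without library a it was 0.15 (limma adjusted p = 0.254). The difference between Cxcl12 and the other chemokine genes was not tested.

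**Figure D2:**
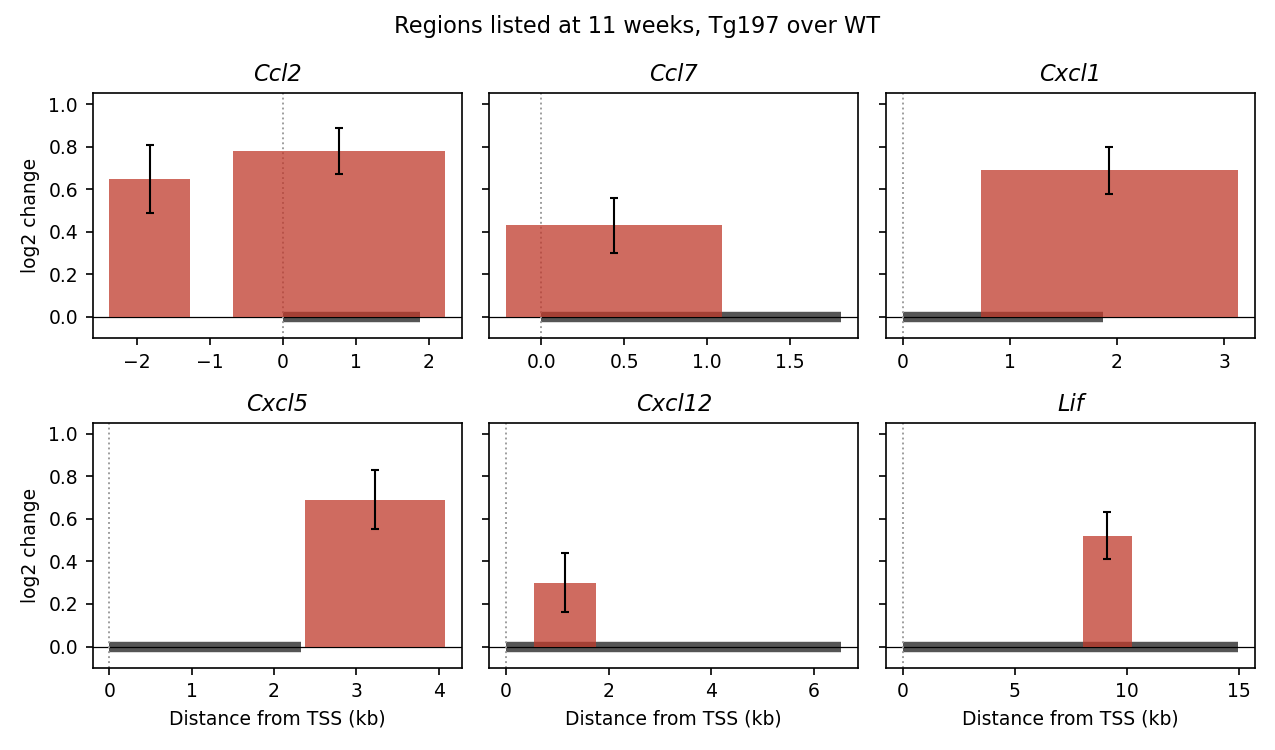
Log2 change of Tg197 over WT at 11 weeks (y axis, bars with SE) against distance from the TSS in kb (x axis, a scale per gene), with the gene drawn as a grey bar. The Ccl7 region and the longer Ccl2 region cover the TSS, while those of Cxcl1, Cxcl5, Cxcl12 and Lif begin after it.

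Levels of WT cells at 11 weeks were set per kb of region. The regions were bounded by the authors' comparison and cover different parts of each gene, so the order is one of these places and not of the genes as a whole. The upstream and gene regions of Ccl2 held 68.7 ± 7.7 and 75.8 ± 7.4 normalized reads per kb and Cxcl5 77.9 ± 6.8, and these 3 neighbours overlapped in their libraries. Cxcl1 followed with 104.2 ± 11.8, Lif with 147.0 ± 20.2, Ccl7 with 188.4 ± 16.7 and Cxcl12 with 275.3 ± 10.1. From Cxcl5 to Cxcl1, from Cxcl1 to Lif and from Ccl7 to Cxcl12 the library ranges were apart, while Lif (133.0 to 170.1) and Ccl7 (169.4 to 200.6) overlapped. In Tg197 cells the Ccl2 gene region held 129.9 ± 11.9 reads per kb and Cxcl5 127.0 ± 21.7, both below Cxcl12 (346.4 ± 81.0).

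Lif, a gp130 cytokine that synovial fibroblasts release under TNF and IL-1, was the one member with regions at all 3 ages. At 11 weeks its region inside the gene, 8031 to 10230 bases after the TSS (chromosome 11, 4165601 to 4167800), held 459, 506 and 425 reads in Tg197 and 292, 374 and 303 in WT. All Tg197 libraries were above all WT libraries, of which b was highest. The rise was 1.43-fold, from 323.3 ± 44.3 to 463.6 ± 40.6 (log2 change 0.52 ± 0.11, limma adjusted p = 0.00434).

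The 8 week Lif region (4165801 to 4167100, from 8231 to 9530 bases after the TSS) lies wholly within the 11 week one, with 1300 shared bases. Its Tg197 libraries held 237, 262 and 299 reads and its WT libraries 168, 179 and 209. The groups did not overlap here either. The ratio was again 1.43-fold, with means of 266.1 ± 31.3 and 185.6 ± 21.4, but the log2 change of 0.52 ± 0.20 did not pass limma (adjusted p = 0.0725). Without WT library c it was 0.61 (limma adjusted p = 0.0167). In that fit limma called 2563 of all 2923 listed regions, against 0 with all libraries. The 8 and 11 week values come from different libraries scaled in separate tables, so the 2 ages were not tested against each other.

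At 3 weeks the Lif regions lay elsewhere and were lower in Tg197. The upstream region, 2969 to 1670 bases before the TSS (4154601 to 4155900), held 126, 46.4 and 121 reads in Tg197 and 175, 154 and 176 in WT. Tg197 library b stood far below the other 5 libraries, and all 3 were below WT. The mean was 42.0% lower, 97.9 ± 44.7 against 168.6 ± 12.5 (log2 change -0.91 ± 0.31, limma adjusted p = 0.0177), and without Tg197 library b the change was -0.44 (limma adjusted p = 0.0163). The region at the start of the gene, from 31 to 1030 bases after the TSS (4157601 to 4158600), held 81.9, 67.2 and 78.8 reads in Tg197 and 104, 111 and 140.5 in WT. Again no libraries overlapped, and the level fell by 0.63 on the log2 scale (SE 0.22, limma adjusted p = 0.0181). With scaling to the listed regions this change was 0.04, so its direction turned, and the upstream one was -0.24.

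**Figure D3:**
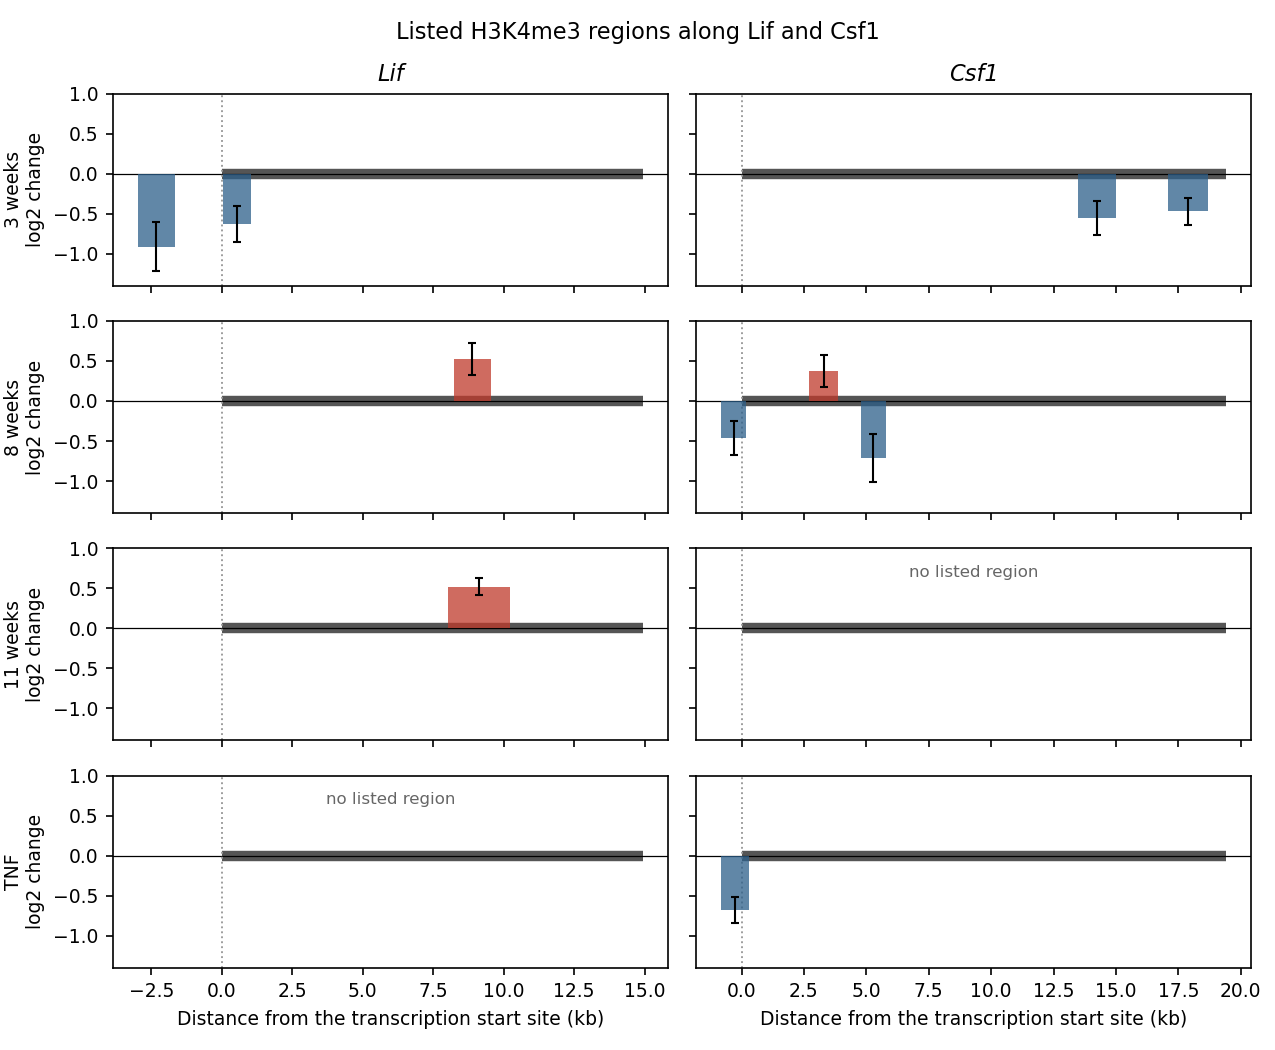
Log2 change (y axis, bars with SE) of the listed regions of Lif and Csf1 against distance from the TSS in kb (x axis), with 1 row per comparison and the gene as a grey bar. Lif bars are below 0 near the TSS at 3 weeks and above 0 about 9 kb inside the gene at 8 and 11 weeks, and Csf1 bars are below 0 at the TSS at 8 weeks and with TNF.

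Csf1, the macrophage growth factor, had 6 regions, at 3 weeks, at 8 weeks and with TNF, and none at 11 weeks. It is the single member with a listed region in the TNF table. There, the promoter region from 814 bases before to 285 bases after the TSS (chromosome 3, minus strand, 107563101 to 107564200) held 181, 139.8 and 181 reads with TNF and 285, 250.1 and 264 without. Every treated library was below every untreated one. The mean was 37.2% lower, 167.3 ± 23.7 against 266.5 ± 17.5 (log2 change -0.68 ± 0.16, limma adjusted p = 0.046). This 1 member region passed the authors' adjusted p as lower where 72.3% of listed regions did, passed limma as lower where 42.6% did, and did not overlap where 51.8% did not, and its change was close to the table's median of -0.58. The limma call was lost without TNF library b, TNF library c, WT library a or WT library b (limma adjusted p = 0.135, 0.129, 0.132 and 0.109), with changes of -0.56, -0.74, -0.63 and -0.72. In each of these 4 fits limma called 0 of all 3082 listed regions, with 1125, 1187, 1139 and 1234 at an unadjusted p under 0.05, against 1823 calls with all libraries and 1984 by voom. With scaling to the listed regions the change was -0.17.

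At 8 weeks the Csf1 promoter region (107563201 to 107564200, from 814 bases before to 185 bases after the TSS) shared 1000 bases with the TNF region. Tg197 libraries held 128, 143 and 167 reads and WT libraries 215, 184 and 203. All Tg197 libraries were below WT, with means of 145.9 ± 19.9 and 200.6 ± 15.7. The log2 change of -0.46 ± 0.21 did not pass (limma adjusted p = 0.0807) and was 0.25 with scaling to the listed regions. The Tg197 and TNF comparisons used the same 3 WT libraries as control, so the lower values at this promoter in both are not 2 separate observations.

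Inside Csf1 the 8 week regions went in both directions. From 2686 to 3885 bases after the TSS (107559501 to 107560700) Tg197 libraries held 289, 225 and 303 reads and WT libraries 205, 219.9 and 202. Tg197 was higher in every library, with library b just above WT, 1.3-fold in the mean (272.1 ± 41.2 against 208.7 ± 9.8, log2 change 0.37 ± 0.20, limma adjusted p = 0.114). About 1 kb further in, from 4786 to 5785 bases after the TSS (107557601 to 107558600), they held 85.5, 104 and 107 against 229.5, 152 and 118. WT spread widely there, from just above the Tg197 libraries to far above. The means were 98.8 ± 11.6 and 166.8 ± 57.0, and the log2 change of -0.71 ± 0.30 did not pass (limma adjusted p = 0.0743). This change was -0.45 without WT library a (limma adjusted p = 0.241), where limma called 0 of all listed regions. It was -0.92 without WT library c (limma adjusted p = 0.00563), where limma called 2563 of all 2923. With scaling to the listed regions it was 0.01.

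Over the 4 member regions at 8 weeks, 2 were higher and 2 lower by the authors' adjusted p, where 20.2% of all listed regions were higher and 77.2% lower. The groups were apart upward in 2 and downward in 2, against 16.9% and 46.3% of all. Limma called 0.0% of the listed regions at this age and 0 members, with 1876 of 2923 regions at an unadjusted p under 0.05, and voom, a limma fit on the recovered reads, also called 0.

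The 3 week regions of Csf1 were at the other end of the gene. From 17086 to 18685 bases after the TSS (107544701 to 107546300) Tg197 libraries held 203, 179 and 187 reads and WT libraries 247, 240.3 and 307. The groups did not overlap, and the level fell by 0.47 on the log2 scale (SE 0.17, limma adjusted p = 0.0212). From 13486 to 14985 bases (107548401 to 107549900) they held 134, 115 and 205.0 against 200.6, 211 and 234. Tg197 library c lay inside the WT range. The level fell by 0.55 (SE 0.21, limma adjusted p = 0.0269), and both changes turned, to 0.20 and 0.12, with scaling to the listed regions.

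At 3 weeks, then, all 4 member regions, of Lif and Csf1, were lower in Tg197 by the authors' adjusted p, as 89.5% of all listed regions were, all 4 fell by limma, as 88.9% did, and 3 of 4 did not overlap, as 86.4% did not. Their median log2 change of -0.59 was near the table's -0.70. These shares are near the background of the table. The 4 calls depended on single libraries: without WT library c limma called 0 of the 4 and 0 of all listed regions (9776 at an unadjusted p under 0.05, voom 12774 with all libraries), and without WT library a or b it called 2 of the 4. The region 13486 bases into Csf1 also lost its call without Tg197 library a (limma adjusted p = 0.101) or b (limma adjusted p = 0.0656).

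**Figure D4:**
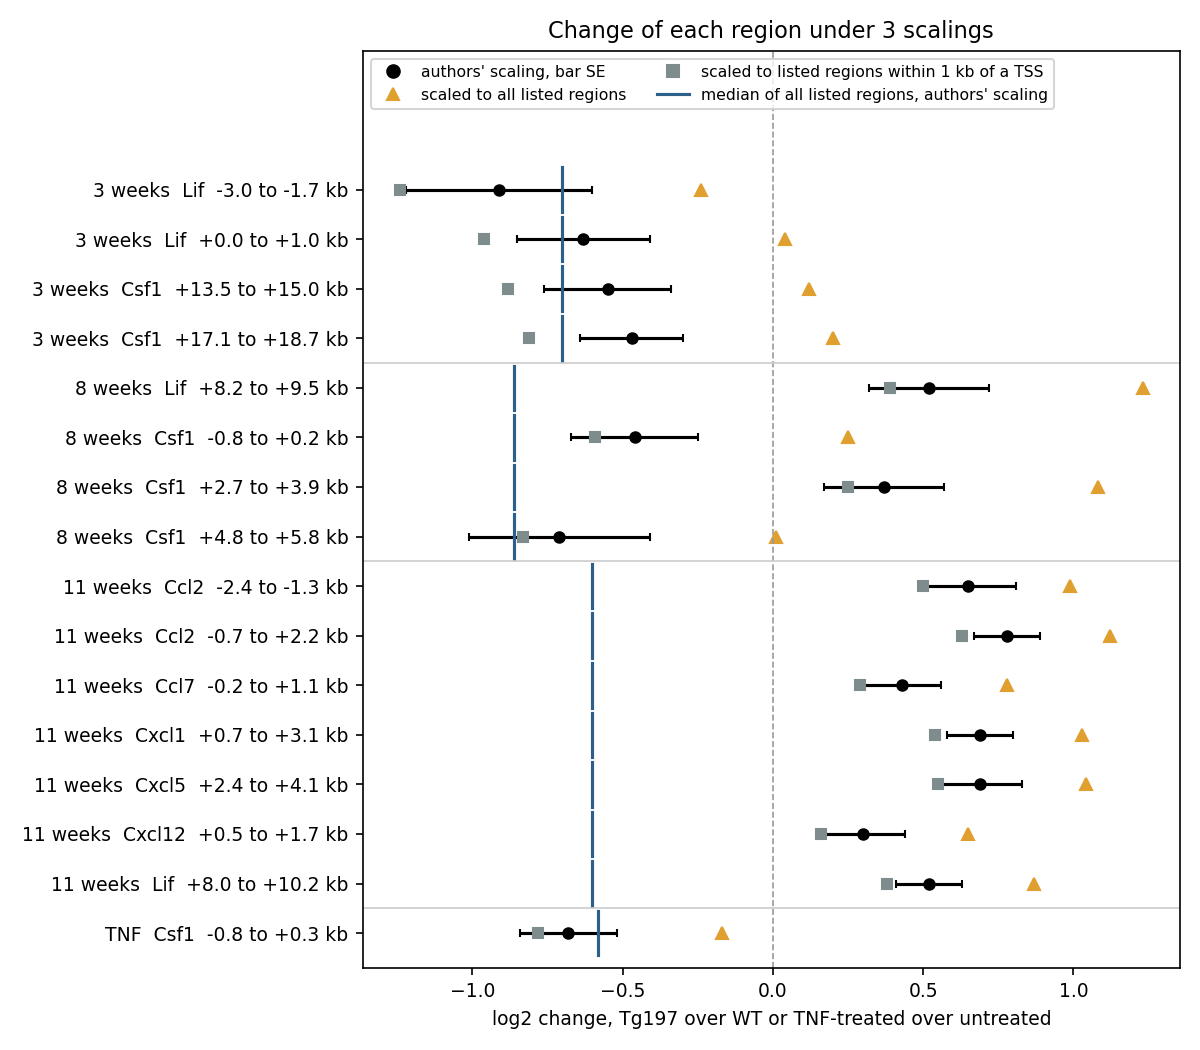
Log2 change (x axis) of each of the 16 regions under 3 scalings, with the SE for the authors' scaling and a vertical line at the median of all listed regions. The 7 regions of 11 weeks stay above 0 under all 3 scalings, of which only that to regions near a TSS lowers the changes. With scaling to all listed regions, which raises them, 3 of 4 at 3 weeks and 2 of 4 at 8 weeks change sign.

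The 7 regions of 11 weeks stayed higher in Tg197 with scaling to regions near a TSS, the only rescaling that could turn them. With scaling to the listed regions their changes ran from 0.65 (Cxcl12) to 1.12 (the Ccl2 gene region), and with scaling to regions near a TSS from 0.16 (Cxcl12) to 0.63 (Ccl2). The Lif region of 8 weeks was 1.23 and 0.39, and the higher Csf1 region of that age 1.08 and 0.25.

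The authors' deposited table also gives an enrichment over input per group, which shows how strongly the mark stood out in each place. At 11 weeks the WT values were 1.28 in both Ccl2 regions, above only 6.5% of the listed regions, 1.59 at Cxcl5 and 2.26 at Cxcl1, against a median of 2.59 over the table. In Tg197 they were 2.07 and 2.31 at Ccl2, 2.73 at Cxcl5 and 3.83 at Cxcl1. Ccl7 (3.85 in WT and 5.56 in Tg197), Lif (3.98 and 5.87) and Cxcl12 (6.52 and 8.69) stood out in both genotypes, and Cxcl12 was above 96.3% of listed regions in WT. Thus in the authors' deposited table all 7 regions had more enrichment in Tg197, from low WT values at Ccl2 and Cxcl5 and from a high one at Cxcl12.

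For Csf1 the enrichment in the authors' deposited table was higher with TNF and in Tg197 at the promoter regions, where the normalized reads were lower, but the enrichment of the other listed regions differed between the groups too. At the TNF promoter region it was 5.84 with TNF and 4.71 without, while the table's median was 4.17 and 2.98, so that Csf1 stood above 66.3% of listed regions with TNF and above 89.2% without. At the 8 week promoter it was 4.66 in Tg197 and 4.47 in WT, above 81.5% and 91.9% of listed regions in the authors' deposited table. The median of the listed regions there was 2.16 in Tg197 and 2.51 in WT. The percentile of the Csf1 promoter was thus lower with TNF and in Tg197, while the median was higher with TNF and lower in Tg197. At the 3 week region 17086 bases after the TSS the enrichment was 3.29 in Tg197 and 3.17 in WT, above 79.5% and 72.1%, while the reads were lower. In the region 2686 bases into the gene at 8 weeks both measures were higher in Tg197, with an enrichment of 8.08 against 4.03. No source used here gives the scaling of the enrichment.

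**Figure D5:**
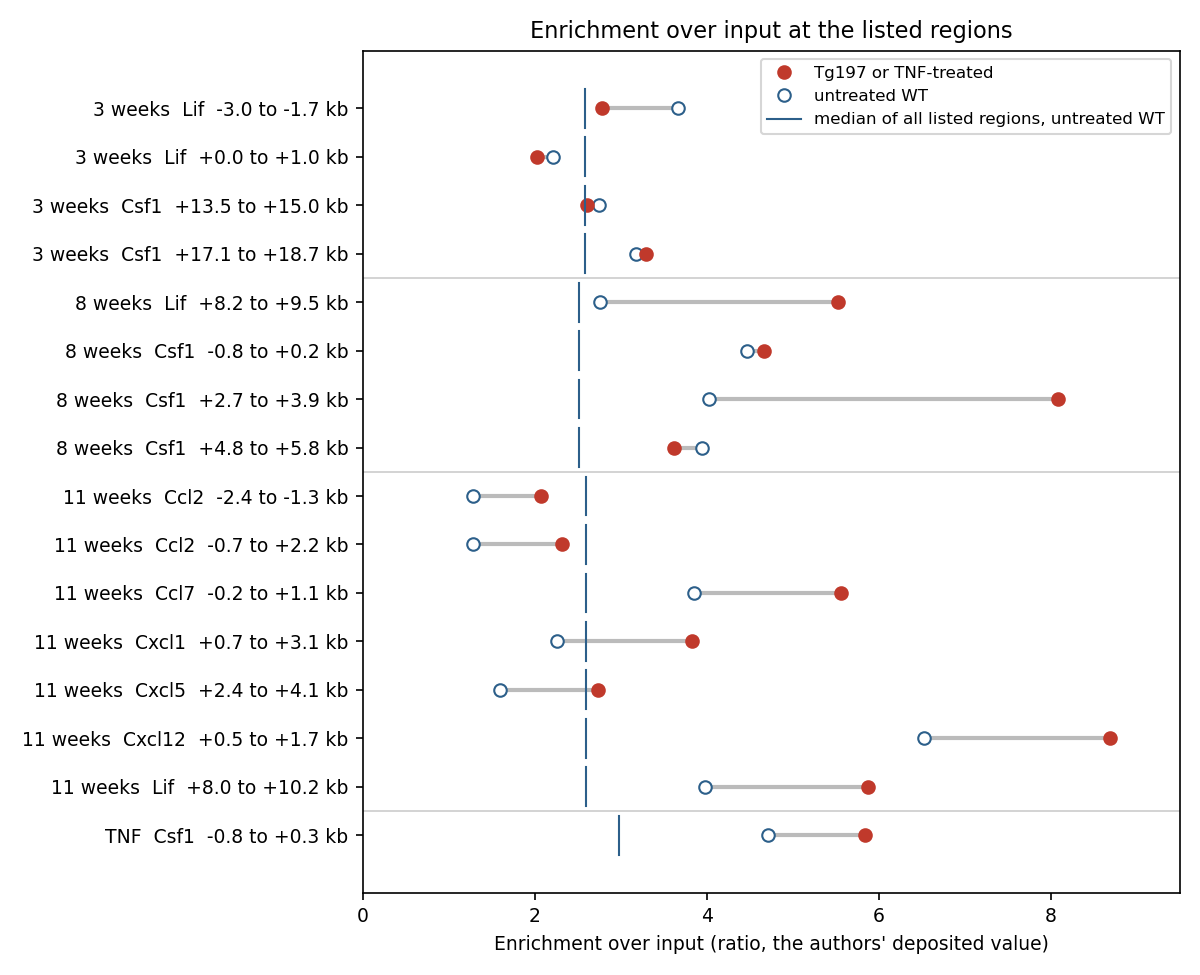
Enrichment over input (x axis, ratio, the authors' deposited values) in the 16 regions, with filled points for Tg197 or TNF-treated and open points for WT, and a line at the WT median of the table. At 11 weeks every filled point is to the right of its open point, and the 2 Ccl2 regions start lowest, at 1.28.

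Within 50 kb of the member start sites the tables listed further regions not assigned to them. At 3 weeks an intergenic region 6.5 to 7.5 kb after the Cxcl1 TSS fell from 114.3 ± 13.2 to 63.4 ± 18.2 (log2 change -0.88 ± 0.28, limma adjusted p = 0.0154). With scaling to the listed regions its change was -0.21. Of all listed regions at that age 89.5% were lower by the authors' adjusted p. Around Lif at 11 weeks an intergenic region 19.5 to 20.5 kb downstream of the TSS rose from 74.2 ± 5.4 to 115.8 ± 8.9 (log2 change 0.64 ± 0.16, limma adjusted p = 0.00451). Upstream of Lif, from 34.2 to 32.9 kb before the TSS, another fell at the same age from 172.5 ± 17.9 to 103.6 ± 15.3. Around Csf1 at 3 weeks 5 intergenic regions past the gene, from 20.6 to 39.1 kb after the TSS, and 2 before it fell, of which those at 27.7 to 29.3 kb (0.14), 25.9 to 27.0 kb (0.21) and 48.8 to 47.7 kb before the TSS (0.13) turned with scaling to the listed regions, and 1 from 48.5 to 47.4 kb before the TSS fell at 11 weeks as well (log2 change -0.51 ± 0.13). With TNF an intergenic region 32.2 to 31.2 kb before the Lif TSS fell from 160.6 ± 72.3 to 51.1 ± 24.1 (log2 change -1.63 ± 0.58, limma adjusted p = 0.0463). Of all listed regions with TNF, 42.6% fell by limma. The start of Mthfd2l, a mitochondrial folate enzyme gene that lies beyond Cxcl1, rose with TNF from 249.8 ± 53.5 to 375.0 ± 11.4 (log2 change 0.61 ± 0.16, limma adjusted p = 0.046). In Tg197 at 8 weeks this start was higher too, 378.4 ± 13.6 against 267.7 ± 72.6. That change of 0.53 ± 0.23 did not pass (limma adjusted p = 0.0776), while the authors' adjusted p was 0.000266. Both comparisons used the same WT libraries as control, so these are not separate observations.

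Other genes of these pathways were followed in 6 lists, and the counts here are by the authors' adjusted p. All 37 higher regions of these lists kept their direction with scaling to regions near a TSS, the only rescaling that could turn them. Of the 58 lower ones, 21 turned with scaling to the listed regions, which in turn could not turn a higher one. A lower count is to be read against the tables, in which lower regions were 89.5% at 3 weeks, 77.2% at 8 weeks and 72.3% with TNF, and 4417 of 6593 at 11 weeks. Of 32 other chemokine ligands, only Cxcl14, a CXC chemokine, had a listed region, at 11 weeks, where it rose from 218.0 ± 33.5 to 374.8 ± 108.9 (log2 change 0.75 ± 0.17, limma adjusted p = 0.00434). No ligand of that list was lower in any table. The list of chemokine receptors held 24 names, with Cxcr7 entered also as Ackr3. Of these, 3 were lower at 3 weeks (Ccr7, Cxcr5 and Cxcr7, all 3 fell by limma), 2 at 8 weeks (Ccr7 and Cxcr5, 0 by limma), 2 at 11 weeks (Ccr7 and Cxcr5, both fell) and 2 with TNF (Ccr7 and Ccrl2, of which Ccr7 fell). None was higher by that test, and with scaling to the listed regions a Ccr7 region at 3 weeks and Ccrl2 with TNF turned. Ccr7, a homing receptor of lymphocytes and dendritic cells, fell by 0.85 on the log2 scale at 3 weeks (SE 0.20) in a region inside the gene.

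In the list of 17 genes of the IL-6 family, its receptors and their signalling, 4 were higher at 11 weeks (Cntfr, Il6st, Jak2 and Lifr) and 3 lower (Clcf1, Il6ra and Jak1). Il6st, the shared receptor chain gp130, rose from 111.2 ± 24.6 to 204.1 ± 50.5 in a region inside the gene (log2 change 0.87 ± 0.19, limma adjusted p = 0.00434), and Lifr, which pairs with it to bind Lif, had 258.3 ± 45.6 against 185.1 ± 8.3 across its TSS (log2 change 0.46 ± 0.13, limma adjusted p = 0.00549). Il6ra, the receptor chain specific for Il6, fell from 170.8 ± 15.8 to 103.8 ± 18.4 at a site inside the gene, while a region near its start rose (log2 change 0.51 ± 0.20, limma adjusted p = 0.0242, authors' adjusted p = 0.11 in the authors' deposited table). At 3 weeks 4 were lower (Clcf1, Il6ra, Il6st and Stat3) and none higher, though 9 of their 14 regions turned with scaling to the listed regions, and at 8 weeks Clcf1 and Jak1 were lower. With TNF Jak2, a kinase of these receptors (log2 change 0.87 ± 0.17), and Osmr, the oncostatin M receptor (0.54 ± 0.16), rose, and Il11ra1 (which turned with scaling to the listed regions), Socs3 and Stat3 fell.

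Among 11 other colony-stimulating factors and receptors, Il34, which shares the receptor of Csf1, was lower at 3, 8 and 11 weeks, with log2 changes of -0.90 ± 0.33, -1.08 ± 0.39 and -0.58 ± 0.19, each in a different place along the gene, and it fell by limma at 3 and 11 weeks. Flt3l was lower at 3 weeks and with TNF, and turned both times with scaling to the listed regions. The receptor Csf1r had no listed region. Of 27 genes of the IL-1, TNF and related cytokines, Il1r1, the IL-1 receptor, fell at 3 weeks (-0.67 ± 0.19) and with TNF (-1.22 ± 0.35) in regions that start at the same base (chromosome 1, 40282801), and rose at 11 weeks elsewhere (0.62 ± 0.22, limma adjusted p = 0.0159). At 3 weeks 6 further genes of the list were lower (Il17ra, Il23a, Lta, Ltb, Tnf and Tnfrsf1a) and Il7 and Tnfrsf1b higher, with Il17ra, Il23a, Tnf and Tnfrsf1a turning with scaling to the listed regions, at 8 weeks Tnfrsf1a was lower, and at 11 weeks Il23a was lower.

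The 9 NF-kB feedback genes, whose products restrain or transmit the signal that induces these chemokines, had higher regions in every table. By the authors' adjusted p, 4 were only higher at 3 weeks (Nfkb2, Nfkbia, Nfkbiz and Tnfaip3) and 2 had regions in both directions (Nfkbie and Tnip1), 4 were higher at 8 weeks (Nfkbia, Nfkbie, Tnfaip3 and Tnip1), 6 at 11 weeks (Birc3, Nfkb1, Nfkbia, Nfkbie, Tnfaip3 and Tnip1) with Relb in both directions, and 5 with TNF (Birc3, Nfkb2, Nfkbia, Tnfaip3 and Tnip1) with Nfkbie in both. Higher regions made up 1321 of 13603, 590 of 2923, 1965 of 6593 and 757 of 3082 listed regions in those tables. This list, too, was chosen with earlier results of these data known. The lower regions of Nfkbie and Tnip1 at 3 weeks, and 1 of 2 of Nfkbie with TNF, turned with scaling to the listed regions. At 11 weeks Tnip1 rose by 0.98 ± 0.13 and Nfkbia by 0.90 ± 0.11 on the log2 scale, above every member region of that age. The member chemokines had listed regions at 11 weeks only. Since the tables hold no value for an unlisted region, whether Ccl2, Ccl7, Cxcl1, Cxcl5 and Cxcl12 differed less at 3 and 8 weeks or with TNF was not tested.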

How the data were processed

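H3K4me3 ChIP-seq of 21 libraries in 7 groups of 3, with 1 input, was available as 4 comparison tables on mm9. The members and the gene lists were chosen with earlier results of these data known. Named are all 8 members with every listed region, and from each pathway list the genes past the authors' adjusted p, with values for at most 3 a list and comparison.

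Per the file headers, each region holds 3 normalized counts per group, made by the authors, and their deposited average is the signal. The deposited enrichment is a ratio over input, the deposited fold is log2, and the deposited p-value columns hold the authors' p and adjusted p. The region caller and scaling were not given in the sources used here. In the submitters' processing notes stand the build mm9 and, with no version or role, Cuffdiff, Cufflinks, TopHat2, TopHat and BWA. The cells carry no replicate numbers. The headers say treatment and control. Control was taken to be WT, as the control reads of both 8 week tables were equal in 162 of 162 values over 54 shared regions, and the 3 and 11 week tables were read likewise.

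In 100.0% of values the normalized count was a whole number of steps of its library (tolerance 0.02 normalized reads), so reads were recovered. The tables held normalized values and not the counts first planned for, so limma 3.58.1 in R 4.3.3 was fitted per table to log2(normalized count + 0.5), letting the variance follow the mean, with Benjamini-Hochberg adjustment over all its regions at 0.05, and was tested on simulated data. Replicates differed by more than counting noise in all pairs. Promoter classes reach up to 3 kb from the TSS. Alternatives were pseudocounts, a filter, 2 scalings, no trend, voom, each library left out, and other thresholds.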

Additional observations from a re-analysis of the deposited data

How the results depend on the processing

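Of the 16 member regions, all kept direction and side of the limma threshold with pseudocounts of 1 and 5 and with a filter on a mean of at least 50. Scaling to the listed regions turned 5 log2 changes: the 3 week Lif region at the TSS (0.04), the 3 week Csf1 regions (0.20 and 0.12) and the 8 week Csf1 regions at the promoter (0.25) and 4786 bases into the gene (0.01). Under it limma called 0 member regions at 3 weeks, 1 at 8 weeks and 0 with TNF, against 4, 0 and 1 with the authors' scaling. Of all listed regions it called 946 of 13603, 414 of 2923 and 1030 of 3082, against 12733, 0 and 1823. Scaled on listed regions near a TSS (within 1 kb), limma called 2 member regions at 8 weeks, and 1729 of all 2923. Because lower regions were the majority of each table, the first rescaling shifts all changes upward by its construction. Without a trend in the variance the TNF call was lost (0 called, limma adjusted p = 0.0534). In that fit limma called 0 of all 3082 listed regions, with 2175 at an unadjusted p under 0.05. Leaving out 1 library at a time gave 0 to 4 calls at 3 weeks, 0 to 2 at 8 weeks and 0 to 1 with TNF, and the 6 calls of 11 weeks did not drop. Over all listed regions these fits called 0 to 13397 of 13603 at 3 weeks and 0 to 2563 of 2923 at 8 weeks. With TNF they called 0 to 2770 of 3082, and at 11 weeks 6139 to 6276 of 6593. By the authors' adjusted p at 0.001, 1 region remained past it at 8 weeks and 4 at 11 weeks, and promoter classes alone held 2 at 3 weeks and 1 at 8 weeks. For the other moves the cause was not tested. No paired analysis was possible because the values of a group carry no replicate number. With 58 to 540 reads per region and library, and 3 libraries a group, small differences were not detectable.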
